A study of Mus musculus with 4 samples.

Results

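Transcripts of 10 receptor genes of the TNF receptor superfamily were compared between CYLD-knockout and wild-type regulatory T (Treg) cells. The genes were Tnfrsf1a, Tnfrsf1b, Tnfrsf9, Tnfrsf4, Tnfrsf18, Cd27, Tnfrsf14, Tnfrsf25, Tnfrsf10b and Tnfrsf26, out of 19938 genes with a probe set annotated to exactly 1 gene symbol. The members were a named list, and each had 1 such probe set, so the rule of keeping the brightest probe set of a gene made no choice here. In the knockout cells Tnfrsf9 and Tnfrsf1b were higher and Tnfrsf1a was lower, and the other 7 receptor genes did not pass the test.

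Receptors of this family sit in the cell membrane, bind trimeric ligands of the TNF family and pass the signal to TRAF adaptor proteins or, where the receptor carries a death domain, to death domain adaptors. Ubiquitin chains built on the signalling complex recruit the kinases that switch on NF-kB, and CYLD is a deubiquitinase that trims lysine-63-linked and linear chains there. Treg cells are known for high surface levels of several of these receptors, among them TNFR2, OX40, GITR and, once activated, CD137, and engagement of these receptors bears on Treg survival, expansion and suppressive function.

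The tested cells had the genotype Cyld fl/fl Foxp3-yfp-cre (CYLD KO, 2 arrays) and their controls Cyld+/+ Foxp3-yfp-cre (WT, 2 arrays), all on C57Bl6 and 6 to 8 weeks old. Both genotypes carry the Foxp3-driven Cre with its yellow fluorescent protein (YFP), so YFP-positive cells could be sorted from both. In the CYLD KO mice this design is meant to remove Cyld in cells that have switched on Foxp3. Deletion in other cells was not tested. RNA was hybridised to Affymetrix arrays. The labels give the tissue as spleen with lymph nodes in one field and as spleen in another, and do not say whether replicates were separate mice or pools, so p-values measure only the spread between these samples, which may be technical.

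Cyld read 284 and 218 on the CYLD KO arrays, against 524 and 502 on the WT arrays (log2 fold change -1.04, limma adjusted p = 8.96e-08); since the deleted exons are not named, its probe set need not lie within them. Markers of the sorted cells were bright on every array: Foxp3 read 1697 and 1553 in CYLD KO and 2016 and 1881 in WT, and Cd4 and Cd3e read between 1818 and 3615 on all 4 arrays. Il2ra, which encodes CD25, read 1914 and 1810 in CYLD KO, against 2579 and 2499 in WT (adjusted p = 0.0831). CYLD KO replicate 2 stood apart from the other 3 arrays in Y-linked genes: Kdm5d read 127 there, against 268 on CYLD KO replicate 1 and 271 and 275 in WT, and Eif2s3y 98.9, against 221 on CYLD KO replicate 1 and 253 and 219 in WT. Xist read 1630 and 2321 in CYLD KO, the higher value on replicate 2, against 1306 and 1403 in WT. Besides CYLD KO replicate 2, the other 3 arrays thus read both Xist and these Y-linked genes well above the array medians. Whether arrays mixed male and female cells, in shares that differed between them, was not tested. Limma called Kdm5d and Eif2s3y lower and Xist higher in CYLD KO (adjusted p = 0.0160, 0.00243 and 0.0291). CYLD KO replicate 2 also had the highest summed level of 5 proliferation genes, 4455 against 2835 on CYLD KO replicate 1 and 1807 and 1649 in WT. Array medians lay between 99.0 and 105, no detection calls were at hand, and no value was at 0. Folds of genes that read near the medians may therefore be understated, which was not tested.

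Of the 10 receptor genes, 2 were higher and 1 was lower in CYLD KO Treg cells (limma, Benjamini-Hochberg adjusted p under 0.05 over 13956 genes), and the same call was made for 8.3% of all tested genes. By direction, 4.79% of all tested genes were higher and 3.5% were lower. The median log2 fold change of the 10 genes was -0.02, as it was over all tested genes (-0.02), with 5 positive and 5 negative values. CYLD KO and WT arrays did not overlap for 9 of the 10 genes, 5 with CYLD KO above and 4 below, but 48.7% of all tested genes also had arrays that did not overlap, so that count alone carries little. All 10 passed the filter on low values, which was set on the mean over the 4 arrays. With 1 array left out, log2 fold changes were 0.73 to 0.88 for Tnfrsf9, 0.44 to 0.57 for Tnfrsf1b and -0.73 to -0.48 for Tnfrsf1a. Fewer receptor genes were called without either WT array, as was so over all tested genes, so that loss does not set the receptors apart.

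**Figure D1:**
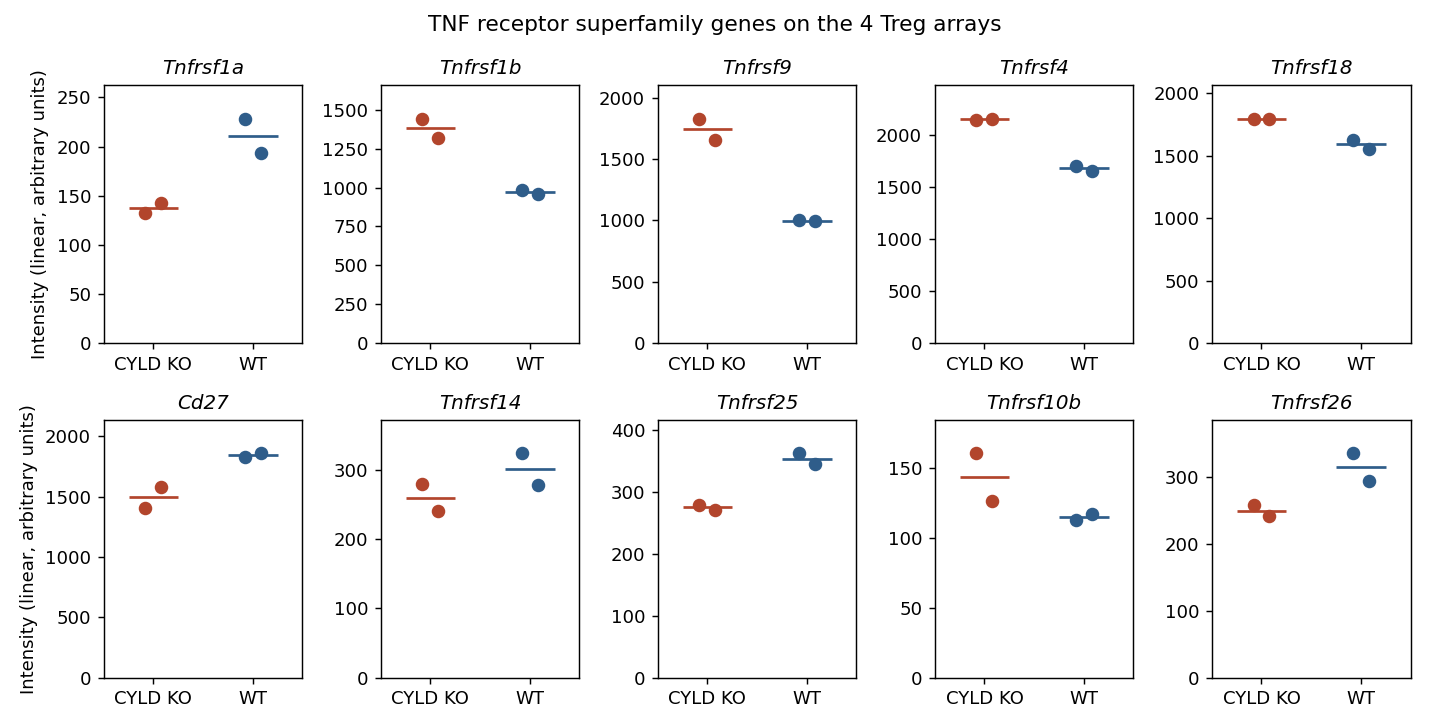
Intensity of each of the 10 receptor genes (y axis, linear scale starting at 0, scaled per gene) on the 2 CYLD KO and 2 WT arrays; points are arrays and bars are group means. Tnfrsf9 reads 1828 and 1655 in CYLD KO and 1000.2 and 993 in WT, Tnfrsf1a lies lower in CYLD KO, and Tnfrsf14 is the gene whose groups overlap.

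Tnfrsf9, which encodes CD137, a costimulatory receptor induced by antigen receptor signals and carried by activated Treg cells, showed the largest change of the 10. It read 1828 and 1655 on the CYLD KO arrays, against 1000.2 and 993 on the WT arrays. Both knockout arrays lay above both wild-type arrays, and the gap was several times the spread within either group. The group means were 1742 ± 122 in CYLD KO and 996 ± 5.46 in WT (SD, n = 2 each), a 1.75-fold level with a log2 fold change of 0.80 ± 0.17 (SE; 95% interval 0.47 to 1.14; limma adjusted p = 9.36e-05). Its adjusted p was between 1.41e-04 and 0.0252 with any 1 array left out. The higher of the 2 knockout values was on replicate 1, the array with the lower proliferation sum of the pair (2835, against 4455 on replicate 2). Both sums lay above those of the WT arrays (1807 and 1649), and the part of proliferation in the Tnfrsf9 level was not tested.

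RefSeq lists 2 transcription starts for Tnfrsf9 in GRCm38.p6, and the 300 bases around each (250 before the start, 50 from it on) are printed to show what they hold of the NF-kB and AP-1 letters. Searched on both strands were the AP-1 string TGANTCA, which is its own reverse complement, a strict 10-base kB motif, and a relaxed 10-base kB consensus that was added after the data were seen and takes in the strict form. Capitals mark matches. The first window lies at chr4:150919905-150920204 and the second at chr4:150927749-150928048, both on the plus strand.
Tnfrsf9 first start: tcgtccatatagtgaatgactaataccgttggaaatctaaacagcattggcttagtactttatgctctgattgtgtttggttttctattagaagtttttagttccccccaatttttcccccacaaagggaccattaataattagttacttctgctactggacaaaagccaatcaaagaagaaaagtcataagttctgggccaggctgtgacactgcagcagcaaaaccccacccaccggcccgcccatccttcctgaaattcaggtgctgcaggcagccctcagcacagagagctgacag
Tnfrsf9 second start: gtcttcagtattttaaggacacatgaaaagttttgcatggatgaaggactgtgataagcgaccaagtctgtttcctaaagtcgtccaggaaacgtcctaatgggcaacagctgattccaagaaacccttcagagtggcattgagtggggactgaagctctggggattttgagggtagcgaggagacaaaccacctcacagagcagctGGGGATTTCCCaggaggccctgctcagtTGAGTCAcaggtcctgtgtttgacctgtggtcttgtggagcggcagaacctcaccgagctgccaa
The second window holds GGGGATTTCCC, a pair of overlapping matches to the relaxed kB consensus beginning 43 bases before the start, and then, after 17 other bases, the AP-1 match TGAGTCA. The first window held none of the 3 patterns. Over all 32851 RefSeq windows of this length, 8.46% held the relaxed kB consensus, 7.81% held TGANTCA and 0.411% held the strict kB motif. Windows were listed for 8 of the 10 receptor genes, 10 windows in all, of which 2 held the relaxed kB consensus (the other is the second start of Tnfrsf25), 1 held TGANTCA and 0 held the strict kB motif. Such matches are letters in a window and not evidence of binding, and the arrays do not tell which start was used.

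The 3 tested genes whose log2 profile over the 4 arrays lay closest to that of Tnfrsf9, by Euclidean distance after centring each gene, were Ercc6l2 (distance 0.01), Sec14l1 (0.04) and Mast4 (0.05). Ercc6l2 read 399 and 360 in CYLD KO, against 219 and 215 in WT. With 4 arrays such closeness mainly restates the same direction and size of change.

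The receptors for TNF itself moved in opposite directions. Tnfrsf1b encodes TNFR2, which lacks a death domain, binds TRAF2 and is abundant on Treg cells. It read 1444 and 1319 on the CYLD KO arrays, against 985 and 961 on the WT arrays. Both knockout arrays lay above both wild-type arrays. Its means were 1382 ± 88.7 in CYLD KO and 973 ± 17.2 in WT, a log2 fold change of 0.50 ± 0.17 (SE; 95% interval 0.17 to 0.84; limma adjusted p = 0.0384). That call is close to the threshold: the adjusted p was 0.0875 without CYLD KO replicate 1, 0.349 without WT replicate 1, 0.361 without WT replicate 2 and 0.0573 in the fit blocked on replicate number.

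Tnfrsf1a encodes TNFR1, the death domain receptor through which soluble TNF signals in most cell types. It read 133 and 143 on the CYLD KO arrays, against 228 and 193 on the WT arrays. The knockout arrays lay below both wild-type arrays. The knockout values were not far above the array medians (99.0 to 105), and the wild-type values were further above them. Its means were 138 ± 7.03 in CYLD KO and 211 ± 25.1 in WT, 0.657 of the WT level (log2 fold change -0.61 ± 0.17 SE; 95% interval -0.94 to -0.27; limma adjusted p = 0.00730). The adjusted p was 0.435 without WT replicate 1 and 0.0566 without WT replicate 2. In bulk RNA, fewer cells of a type and less RNA per cell cannot be told apart.

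Macrophages also express Tnfrsf1a, and macrophage markers moved the same way. Of 10 macrophage and monocyte markers 9 were tested, and 8 were lower and 0 higher in CYLD KO (88.9%, against 8.3% of all tested genes). Their summed level was 966 and 1187 on the CYLD KO arrays, against 2203 and 2054 on the WT arrays, and 0 of the 10 were at 0 on any array. The brightest of them, Vcam1 and Cd68, were both lower: Vcam1 read 285 and 327 in CYLD KO, against 683 and 710 in WT, and Cd68 read 127 and 173 in CYLD KO, against 224 and 202 in WT. The Cd68 call was lost without either WT array (adjusted p = 0.525 and 0.190) or CYLD KO replicate 1 (0.269). Lyz2, named after its values were seen, read 76.1 and 130 in CYLD KO and 102 and 104 in WT. The part of such cells in the lower Tnfrsf1a level was not tested.

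The promoter windows of these oppositely moving receptor genes follow, again in GRCm38.p6 and 5′ to 3′ along the gene, to be set beside those of Tnfrsf9. Tnfrsf1b lies on the minus strand at chr4:145246821-145247120 and Tnfrsf1a on the plus strand at chr6:125349473-125349772.
Tnfrsf1b: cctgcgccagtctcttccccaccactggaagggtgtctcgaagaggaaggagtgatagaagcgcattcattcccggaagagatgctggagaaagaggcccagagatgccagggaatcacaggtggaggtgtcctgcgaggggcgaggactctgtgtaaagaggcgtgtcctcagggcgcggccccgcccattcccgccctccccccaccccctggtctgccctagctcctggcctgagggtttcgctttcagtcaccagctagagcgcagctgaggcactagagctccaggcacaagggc
Tnfrsf1a: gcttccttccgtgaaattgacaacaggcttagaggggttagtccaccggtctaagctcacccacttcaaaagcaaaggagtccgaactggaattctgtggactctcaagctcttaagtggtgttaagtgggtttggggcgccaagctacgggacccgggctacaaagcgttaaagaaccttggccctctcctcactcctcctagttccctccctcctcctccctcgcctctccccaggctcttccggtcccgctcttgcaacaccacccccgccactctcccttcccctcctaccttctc
Neither holds capitals, since none of the 3 patterns occurred in these 300 bases; that says nothing about the factors elsewhere at the genes.

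**Figure D2:**
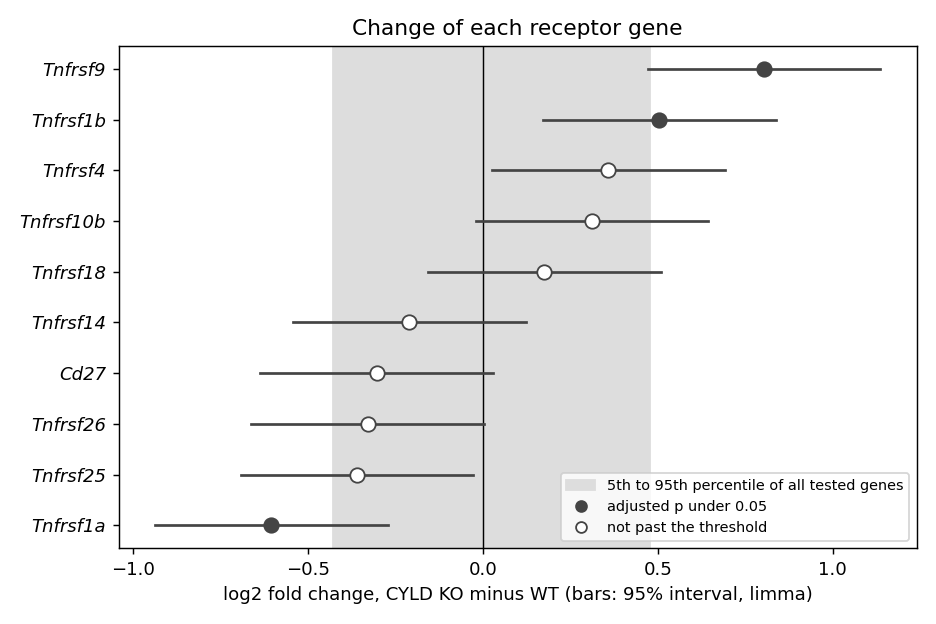
Log2 fold change (CYLD KO minus WT, x axis) of the 10 receptor genes with the 95% interval of the limma fit; filled points passed an adjusted p of 0.05 and the grey band spans the 5th to 95th percentile of all 13956 tested genes (-0.43 to 0.48). Tnfrsf9, Tnfrsf1b and Tnfrsf1a are filled and lie outside the band.

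Among the costimulatory receptors that signal through TRAF proteins and carry no death domain, Tnfrsf4 came nearest to the called genes. It encodes OX40, a receptor constitutively present on mouse Treg cells, and read 2143 and 2154 on the CYLD KO arrays, against 1699 and 1652 on the WT arrays. The arrays of a group nearly coincided and the groups were apart. The log2 fold change was nevertheless only 0.36 (95% interval 0.03 to 0.69), and the limma adjusted p of 0.205 did not pass; with a variance trend along intensity it was 0.0147.

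Tnfrsf18, which encodes GITR, is the other TRAF-binding receptor known for its constitutive presence on Treg cells. It read 1797 and 1793 in CYLD KO, against 1628 and 1553 in WT. Groups did not overlap, but the difference was small, with a log2 fold change of 0.18 (95% interval -0.16 to 0.51, adjusted p = 0.610). The interval leaves room for a rise of the size seen in Tnfrsf1b and does not reach that of Tnfrsf9.

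Cd27, a receptor that supports survival of naive and memory T cells and binds CD70, read 1408 and 1578 on the CYLD KO arrays, against 1824 and 1857 on the WT arrays. The knockout arrays were below both wild-type arrays, and the log2 fold change of -0.30 (95% interval -0.64 to 0.03) did not pass (adjusted p = 0.305). Tnfrsf14 encodes HVEM, which binds LIGHT and also the inhibitory receptor BTLA. It read 279 and 240 in CYLD KO, against 323 and 277 in WT, and the groups overlapped (log2 fold change -0.21, adjusted p = 0.518).

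Of the death domain receptors besides Tnfrsf1a, Tnfrsf25 had the lower values in CYLD KO. It encodes DR3, the receptor for TL1A, whose engagement expands Treg cells in mice. Its level was 279 and 271 on the CYLD KO arrays, against 362 and 345 on the WT arrays. These groups were well apart for their spread, and the 95% interval of the log2 fold change of -0.36 stopped short of 0 (-0.69 to -0.03), but the limma adjusted p was 0.201. Tnfrsf10b, the mouse receptor for the death ligand TRAIL, read 161 and 127 in CYLD KO and 113 and 117 in WT (log2 fold change 0.31, adjusted p = 0.290). Its groups were separated only by a narrow gap, and the value on CYLD KO replicate 1 made most of the difference: the log2 fold change was 0.14 without that array.

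Tnfrsf26 belongs to a small group of mouse receptors without a death domain that also holds Tnfrsf22 and Tnfrsf23, known as decoy receptors for TRAIL. It read 258 and 242 on the CYLD KO arrays, against 336 and 294 on the WT arrays. The knockout arrays were lower without overlap, and the change did not pass (log2 fold change -0.33, 95% interval -0.66 to 0.00, adjusted p = 0.254). Probes may not tell genes this alike apart, which leaves these values uncertain.

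Position grouped the receptor genes as well. In the RefSeq gene order of GRCm38.p6, 6 of the 10 lie on chromosome 4 and 2 on chromosome 6. Tnfrsf4 and Tnfrsf18 are direct neighbours among protein-coding genes, both with positive values that did not pass. Next to Tnfrsf1b stands Tnfrsf8, the gene of CD30, which read 207 and 206 in CYLD KO, against 159 and 146 in WT (log2 fold change 0.43, adjusted p = 0.0997). Tnfrsf26 is followed by Tnfrsf22, which was lower, at 267 and 265 in CYLD KO and 408 and 393 in WT (log2 fold change -0.59, adjusted p = 0.00959); Tnfrsf23, close by, was below the filter. Ltbr, the lymphotoxin beta receptor gene, lies within 3 genes of both Cd27 and Tnfrsf1a and had a log2 fold change of 0.01 (adjusted p = 0.990). Tested direct neighbours of the family thus shared a sign, while Ltbr hardly changed and gives no sign to compare. Few pairs were at hand, so this carries little.

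**Figure D3:**
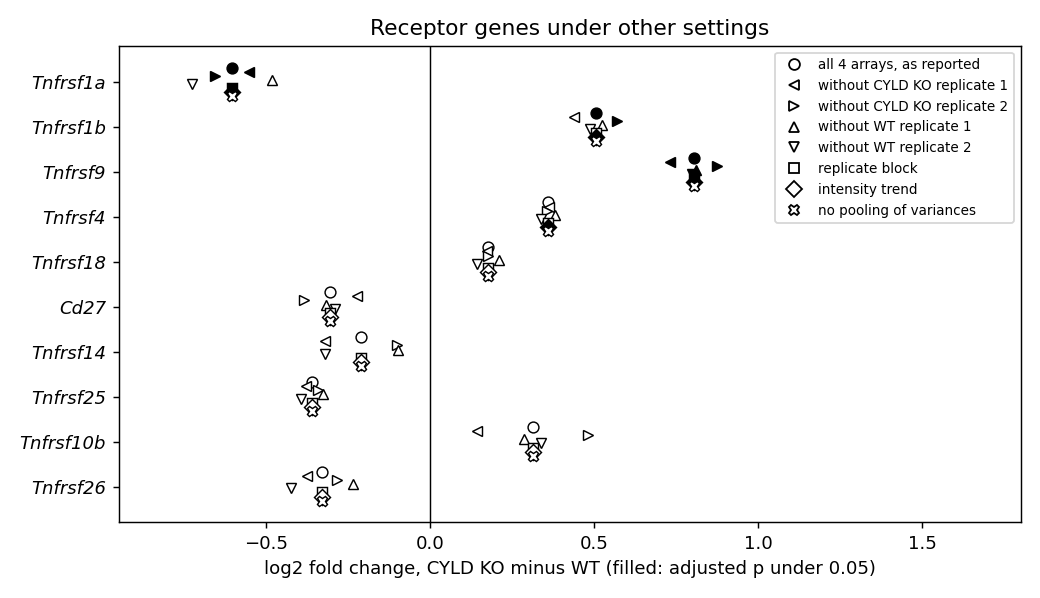
Log2 fold change (CYLD KO minus WT, x axis) of each receptor gene with all 4 arrays, with each array left out, with replicate number as block, with an intensity trend and without pooling variances; filled symbols passed an adjusted p of 0.05. Signs stay the same for all 10 genes; Tnfrsf9 is filled with every array left out and open without pooling.

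The calls rest on a variance pooled over genes. The fit estimated infinite prior degrees of freedom, so 1 standard error, 0.17, applies to all log2 fold changes and the smallest change called was 1.40-fold. With an ordinary per-gene variance on 2 residual degrees of freedom, 0 of the 10 receptor genes passed limma's adjusted threshold while 6 had an unadjusted p under 0.05, and 0 of all tested genes passed, with 1814 at an unadjusted p under 0.05. An exact permutation test of 2 arrays against 2 cannot go below a two-sided p of 0.333.

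Of 18 other receptor genes of the family measured, 16 passed the filter; 1 was higher and 2 were lower in CYLD KO (18.8%, against 8.3% of all tested genes). Their median log2 fold change was 0.04, against -0.02 over all tested genes. Cd40, best known from B cells and antigen-presenting cells, had low values of 103 and 107 in CYLD KO, against 67.1 and 76.2 in WT (log2 fold change 0.55, adjusted p = 0.0188). Tnfrsf21, the gene of death receptor DR6, read 89.4 and 101 in CYLD KO, against 167 and 117 in WT (log2 fold change -0.55, adjusted p = 0.0194). Cd40 and Tnfrsf21 thus read near the array medians. Of the 3 called genes, 0 passed without WT replicate 1, 1 (Tnfrsf21) without WT replicate 2 and 2 without either CYLD KO array. Tnfrsf13b, the receptor TACI of B cells, read 200 and 213 in CYLD KO and 298 and 257 in WT without passing (adjusted p = 0.113). Of 5 measured B cell markers 3 were below the filter and 0 were called; Cd79b and Cd22, the brightest, had adjusted p-values of 0.0850 and 0.616.

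Of 16 ligand genes of the family measured, 13 were tested, 6 were higher in CYLD KO and 0 were lower (46.2%, against 8.3% of all tested genes). The median log2 fold change of the ligands was 0.27, against -0.02 over all tested genes. Tnfsf13b, which encodes the B cell survival factor BAFF, had the largest rise, at 193 and 156 in CYLD KO, against 108 and 90.2 in WT (log2 fold change 0.81, adjusted p = 8.04e-05). Tnfsf8, the ligand of CD30, rose by a log2 fold change of 0.58, Tnfsf11, which encodes RANKL, by 0.52, and Ltb, the membrane anchor of lymphotoxin, by 0.51. CYLD KO and WT arrays did not overlap for any of these 6 genes. Some of the 6 calls were lost whichever array was left out, and most were lost without either WT array. Calls also became fewer over all tested genes without either WT array, so such losses do not show that 1 array made a call.

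Set beside their receptors, 2 of the risen ligands have a partner among the 10. Tnfsf15, the TL1A gene and ligand of Tnfrsf25, read 269 and 257 in CYLD KO, against 159 and 167 in WT (log2 fold change 0.69, adjusted p = 0.00145), where Tnfrsf25 itself had the negative value given above. Tnfsf10, the TRAIL gene and ligand of Tnfrsf10b, read 619 and 630 in CYLD KO, against 434 and 420 in WT (log2 fold change 0.55, adjusted p = 0.0195). The ligand of Tnfrsf9 did not pass: Tnfsf9 had a log2 fold change of 0.27 (adjusted p = 0.374). Further partners, named after their values were seen, gave no call either: Tnf read 284 and 282 in CYLD KO and 328 and 286 in WT, Lta and Tnfsf14 had log2 fold changes of 0.15 and 0.01, and Tnfsf4, Tnfsf18 and Cd70 were below the filter. Cd40lg, carried by activated helper T cells, had a log2 fold change of -0.39 (adjusted p = 0.158).

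**Figure D4:**
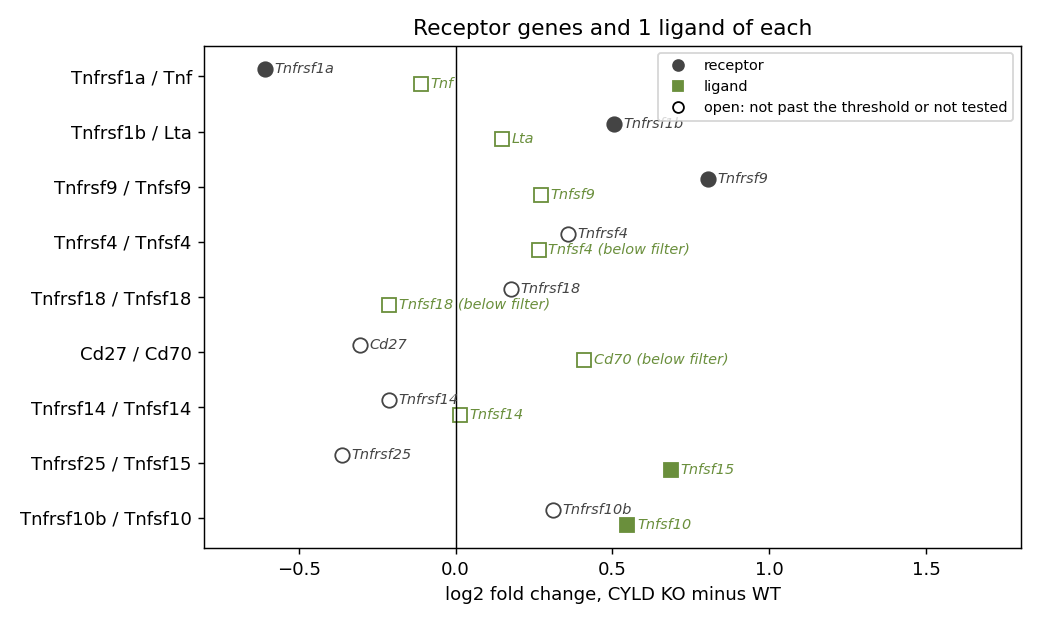
Log2 fold change (CYLD KO minus WT, x axis) of 9 receptor genes (circles) and a ligand gene of each (squares); filled symbols passed an adjusted p of 0.05 and ligands below the filter are marked. The called receptors Tnfrsf9, Tnfrsf1b and Tnfrsf1a stand beside ligands that were not called, and the called ligands Tnfsf15 and Tnfsf10 beside receptors that were not.

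Downstream of the receptors, adaptors and kinases gave 2 calls among 20 tested genes, 1 higher and 1 lower. That share, 10%, is near the 8.3% of all tested genes; the list's median log2 fold change was 0.11, against -0.02 over all tested genes. Birc2, which encodes the TRAF2-bound ubiquitin ligase cIAP1, read 545 and 458 in CYLD KO, against 317 and 324 in WT (log2 fold change 0.64, adjusted p = 0.00398). Map3k14, the gene of the NF-kB-inducing kinase NIK, read 144 and 139 in CYLD KO, against 219 and 208 in WT (log2 fold change -0.59, limma adjusted p = 0.00983). Neither call held without WT replicate 1 (0.158 and 0.288) or without WT replicate 2 (0.117 and 0.147), and the Birc2 call was lost when probe sets of a gene were averaged. Among the TRAF genes, Traf5 and Traf6 came closest to the threshold with log2 fold changes of -0.39 and -0.37 (adjusted p = 0.160 and 0.192).

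Of 16 tested NF-kB response genes, a readout that TNF receptors share, 9 were higher in CYLD KO and 0 lower (56.2%, against 8.3% of all tested genes). The median log2 fold change of the list was 0.58, against -0.02 over all tested genes; this list was drawn up with earlier results of these data known, so its direction is no independent evidence. Nfkb2 and Relb, whose products carry the noncanonical pathway triggered by several TNF receptors, had log2 fold changes of 1.05 (adjusted p = 7.53e-08) and 0.84 (3.95e-05). All 3 inhibitor genes of the list rose: Nfkbia by 0.93, Nfkbie by 0.77 and Nfkbib by 0.56. Ccl5 rose by 2.58, Gadd45b, a stress-response gene, by 0.77, the adhesion molecule gene Icam1 by 0.69 and the surface glycoprotein gene Cd83 by 0.60. Tnip1 and Tnfaip3, whose products restrain TNF receptor signalling, had log2 fold changes of 0.47 each without passing (adjusted p = 0.0607 and 0.0621). Nfkb2, Relb, Nfkbia and Ccl5 were past the threshold with any 1 array left out, and of the 9 calls, 4 held without WT replicate 2, 6 without WT replicate 1 and 8 without CYLD KO replicate 2.

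**Figure D5:**
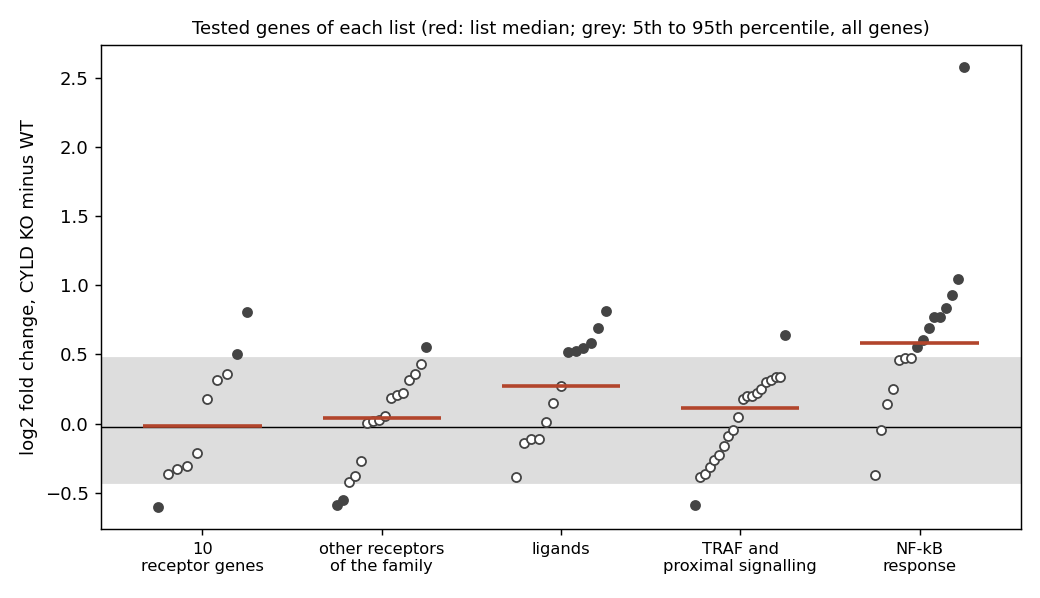
Log2 fold change (CYLD KO minus WT, y axis) of every tested gene in the 10 receptor genes, the other receptors, the ligands, the TRAF and proximal signalling genes and the NF-kB response genes; filled points passed an adjusted p of 0.05, red bars are list medians and the grey band spans the 5th to 95th percentile of all tested genes. The receptor median is -0.02, the ligand median 0.27 and the NF-kB response median 0.58.

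Most markers of further cell types were below the filter or not called, and so few were tested that their shares cannot be read against the 8.3% of all tested genes. The summed level of 6 dendritic cell markers was 628 and 654 in CYLD KO, against 585 and 608 in WT, with 0 of 4 tested called (the brightest were Zbtb46 and Xcr1), and the 5 granulocyte and 2 erythroid markers measured were all below the filter. Of 6 CD8 T and NK cell markers 4 were tested and 1 called: Eomes was higher, at 297 and 342 in CYLD KO and 109 and 98.9 in WT, while Cd8b1 read 469 and 426 in CYLD KO and 362 and 405 in WT. Of 5 stromal markers 3 were tested and 1 called: Pecam1, which leukocytes also express, was lower (log2 fold change -0.56, adjusted p = 0.0174), a call lost without either WT array (0.544 and 0.0935) or without CYLD KO replicate 2 (0.0752); Col1a1 was not called (adjusted p = 0.754). Proliferation genes were higher, 5 of 5 tested, among them Ccnb2 and Mki67 with log2 fold changes of 1.13 each, and their sum was highest on CYLD KO replicate 2; the part of any of these in the receptor levels was not tested.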

How the data were processed

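Per the labels' protocols, RNA of sorted YFP-positive Treg cells was made into biotinylated cRNA for Affymetrix arrays. The authors deposited a linear intensity for each probe set on each array, as the values themselves show; the background correction, summarisation and scaling are not given in the sources used.

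Of 35557 probe sets, 21789 had exactly 1 gene symbol in a platform annotation of 2016, 1621 had several and 12147 had none listed. Of several probe sets of a gene, the brightest on average was kept, giving 19938 genes. Values were converted to log2(value + 1), on which all log2 fold changes stand. The added 1 shrinks those of low genes only slightly: Tnfrsf1a had -0.609 without it, against -0.605 with it. As said above, folds of genes that read near the array medians may be understated. The test covered 13956 genes whose mean log2 value exceeded the 30th percentile (6.29), using limma's lmFit and eBayes (limma 3.58.1, R 4.3.3) and Benjamini-Hochberg adjustment over all of them; every adjusted p is limma's. The fit was tested on simulated data with known changes. The moderated fit gave standard errors and 95% intervals.

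The members and gene lists were chosen with earlier results of these data known, so lists are described by counts and medians beside those of all tested genes. Named were all 10 receptor genes, Cyld, every member of the other receptor, ligand, signalling and NF-kB lists past the threshold with up to 2 more by adjusted p, the nearest profiles, 4 Treg markers, and the 2 brightest tested members of each other marker list; sex-linked genes were named for setting 1 array apart. Promoter windows are RefSeq's, of GRCm38.p6; the arrays carry no coordinates. Alternatives covered the pseudocount, filter, scaling, variance model, array weights, probe sets, replicate block and each array left out.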

Additional observations from a re-analysis of the deposited data

How the results depend on the processing

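Signs of the 10 receptor genes stayed the same under all 16 alternatives. The variance, filter, block, array-weight and probe-set settings left each log2 fold change as it was, so they could not change a sign. Leaving out 1 array cannot reverse a gene whose groups do not overlap, which held for 9 of the 10. Without pooling of variances, 0 genes passed in each list and overall (smallest adjusted p = 0.208), and the log2 fold changes of -0.61 for Tnfrsf1a, 0.50 for Tnfrsf1b and 0.80 for Tnfrsf9 had adjusted p-values of 0.370, 0.304 and 0.270. With 1 array left out, 1 to 3 receptor genes, 0 to 2 other receptors, 0 to 4 ligands, 0 to 3 proximal signalling genes, 4 to 10 NF-kB response genes, 7 to 11 markers of other cell types and 407 to 1685 of all tested genes passed; the group left with a single array is assumed to vary like the other. The same fits gave log2 fold changes of -0.73 to -0.48 for Tnfrsf1a, 0.44 to 0.57 for Tnfrsf1b and 0.73 to 0.88 for Tnfrsf9. Averaging probe sets left 1 proximal signalling gene, and a filter at the median, which tests fewer genes, left 6 markers of other cell types. The replicate number as a block gave Tnfrsf1b 0.50 with an adjusted p of 0.0573 and 2 receptor genes called, 1 higher and 1 lower; deviations of same-numbered arrays correlated at -0.09 over genes, so the numbers are not shown to pair the samples. An intensity trend added a call for Tnfrsf4 (adjusted p = 0.0147). The cause of these changes was not tested. With 2 arrays per group and no detection calls, small changes and genes near background are beyond the precision.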
